A study of Mus musculus with 60 samples.

Results

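The genes described are 10 markers of the basal cell layer of the mouse mammary gland: the keratins Krt5, Krt14 and Krt17, the transcription factor Trp63, the contractile genes Acta2, Tagln, Cnn1, Myh11 and Mylk, and the oxytocin receptor Oxtr. A probe set was taken for a gene where the platform annotation gave it that symbol and no other. This found 19 probe sets of 36899 for 9 of the 10 genes, out of 15964 genes named in all; no probe set carried the symbol Oxtr alone, so Oxtr was not analysed here. RNA was measured on 60 Affymetrix arrays, with 3 array types (A, B and C) for each of 20 mice.

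All mice were ovariectomized, so that the ovary no longer supplied hormones, and each had 1 intraperitoneal injection on each of 4 days. The vehicle animals, V, received 100 µl of sesame oil (4 animals), E received 2 µg of 17-beta-estrogen (4 animals), P received 1 mg of progesterone (4 animals), and E+P received both (5 animals). The description field of the V arrays names progesterone, whereas their titles and treatment text give sesame oil, and the titles were followed. The remaining group, E+P CFP, consisted of fat pads that lacked epithelium, from 3 mice treated with both hormones. It gives the signal of tissue without epithelium, in which skeletal muscle markers were high, as described below. The labels give no strain or age for any group, and the other 17 animals gave intact glands. The labels call the samples of a group biological replicates.

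The milk ducts of the mammary gland are lined by luminal cells and wrapped by a basal layer that is mostly myoepithelium. Myoepithelial cells carry basal keratins and p63, the product of Trp63, as skin keratinocytes do, together with the actin and myosin apparatus of smooth muscle, and they squeeze milk out when oxytocin reaches them. The contractile genes are not theirs alone: smooth muscle of blood vessels, which is also part of a fat pad, transcribes the same genes under serum response factor, which binds the CArG box in their promoters.

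A CArG box is CC, then 6 bases that are each A or T, then GG. In the 250 bases before the Acta2 transcript start that the RefSeq promoter table (GRCm38.p6) uses, a window that lies mostly inside the gene's full span in RefSeq, no exact box was found on either strand, and 2 boxes were found with 1 of the 6 central bases off. They are shown because Acta2, called higher in intact glands below, is the one contractile gene of those in the table whose window held either form. Each is given 5′ to 3′ on the gene's (minus) strand with 10 bases on either side, and the capitals mark the box.
Acta2 box whose first base lies 84 bases before the start, chr19:34255438-34255467: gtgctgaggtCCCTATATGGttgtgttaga
Acta2 box whose first base lies 34 bases before the start, chr19:34255388-34255417: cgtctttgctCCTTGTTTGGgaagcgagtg
An exact box was present in 482 of the 32851 promoter windows of that length (1.47%), and an exact box or one with 1 central base off in 2823 (8.59%). The windows of Cnn1, Mylk, Krt5, Krt14 and Oxtr held neither form, those of Krt14, Mylk and Oxtr lying inside the gene's span, and the table had 6 of the 10 genes. A match is a string of letters and was not tested as a binding site.

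The values are signal intensities on a linear scale. A value below the 25th percentile of its array type (13.5 on A, 28.5 on B and 19.8 on C) was set to that percentile, called the floor, before log2 was taken. A probe set was tested where 3 or more animals lay above the median of the array type, which was 61.6 on A, 85.7 on B and 62.1 on C. Of the 19 probe sets 13 passed, standing for 7 genes: Krt17, Trp63, Acta2, Tagln, Cnn1, Myh11 and Mylk. The probe sets Trp63 103810_at and Cnn1 99942_s_at lay above that median in 15 animals, all of them intact glands. Krt17 92861_i_at did so in 4, of which 3 were E+P glands and 1 a V gland. These passed through the glands where they are high, so counts over those that passed are descriptions only. A difference is that of 2 group means on the log2 scale, written ± its standard error in the limma fit. Its p-value was adjusted by Benjamini-Hochberg over all 23055 probe sets tested, with a threshold of 0.05.

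On the probe set that represents each gene, the intact E+P glands had more signal than the E+P fat pads for Acta2, Tagln, Cnn1 and Trp63. None of the 7 genes passed the threshold in any comparison among intact glands; a dim Krt17 probe set outside those tested is described apart. The defining basal keratins Krt5 and Krt14 were too dim to be tested, in intact glands too. On these arrays the label of basal and myoepithelial genes therefore rests on the contractile genes, Trp63 and Krt17.

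Krt5, which pairs with Krt14 in the filaments of basal cells, was at the floor in 18 of 20 animals, and its highest intensity was 30.0, in E 1. Krt14 on probe set 101041_at was at the floor in 16 animals, with a highest intensity of 24.9. The other Krt14 probe set, 169045_i_at on array type C, ran from 2.50 to 81.2 with 8 animals at the floor and 2, V 3 and E+P 1, above the median of its array type. High and low animals of that probe set occurred in every intact group, and neither keratin was tested.

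Krt17, a keratin of basal and stressed epithelium, had 3 probe sets on array type A, and they did not give the same picture. On 161496_r_at, which represents the gene in the fits, the intensities were 40.3, 62.2, 81.6 and 34.5 in V, 61.7, 87.2, 54.7 and 64.3 in E, 122, 110, 84.4 and 128 in P, 72.1, 70.4, 21.5, 32 and 177 in E+P, and 21.3, 51.0 and 69.4 in E+P CFP. All 4 P glands lay above all 4 V glands, whereas the E+P glands spread over nearly the whole range. P against V differed by 1.09 ± 0.48 (adjusted p = 0.584), which was not called.

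On 92862_f_at the order was another. The intensities were 27.3, 32.7, 8.5 and 13.5 in V, 14.7, 13.3, 17.8 and 14.0 in E, 19.2, 18.0, 10.2 and 14.2 in P, 85.1, 102, 60.5, 51.1 and 46.3 in E+P, and 3.00, 8.30 and 3.90 in E+P CFP. Each of the 5 E+P glands lay above each of the other 15 animals, which held for 62 of the 36701 probe sets that are no controls (0.169%). Only 2 animals lay above the median of the array type, so this probe set was not among those tested.

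A fit of all 36701 probe sets with no filter on dim ones, chosen after these values were seen, gave an E+P minus V difference of at least 1.71 ± 0.27 (adjusted p = 0.0157), with 2 V animals at the floor. The differences were 2.14 ± 0.27 against E (adjusted p = 0.0128) and 2.04 ± 0.27 against P (adjusted p = 0.00537), lower bounds with 1 animal of E and 1 of P at the floor, and at least 2.29 against E+P CFP (adjusted p = 0.000172), where all 3 fat pads were at the floor. The interaction, which asks whether both hormones together differ from the sum of each alone, was 2.47 ± 0.39 (adjusted p = 0.0390). With the filter asking for 2 animals in place of 3, which this probe set passes, the adjusted p was 0.0579 for E+P against V and 0.122 for the interaction, so neither was called. With the floor at the 40th percentile all 5 values were 0.85 and only that against E+P CFP was called (adjusted p = 0.0117). With an offset of 32 in place of the floor they were 0.94, 1.08, 1.07, 1.42 and 1.20 in the order given, and the interaction was not called (adjusted p = 0.0536).

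The third probe set, 92861_i_at, carries the same transcript record in the platform annotation as 92862_f_at. Its intensities were 34.2, 30.6, 10.9 and 64.2 in V, 35.0, 51.4, 34.9 and 58.1 in E, 41.0, 26.3, 10.7 and 46.4 in P, 64.5, 78.8, 53.2, 35.8 and 71.4 in E+P, and 3.50, 23.9 and 18.6 in E+P CFP. Here the E+P glands overlapped with V, E and P but not with the fat pads. The E+P minus V difference was 0.93 ± 0.43 (adjusted p = 0.454). Against E+P CFP it was 1.69 ± 0.47 (adjusted p = 0.0295), a lower bound since 1 fat pad was at the floor; without the E+P glands this probe set would not have passed the filter. A suffix _f marks a probe set that can also detect related transcripts of a family, so the 92862_f_at signal is not assigned to Krt17 alone. Of its relatives among the type I keratins, both probe sets of Krt16 were at the floor in all 20 animals, and so was the dimmer probe set of Krt15. The brighter Krt15 probe set read 150.5 to 212 in V, 237 to 585 in E+P and 147 to 260 in E+P CFP. It carries the suffix _f too, so its signal is not assigned to Krt15 alone. Whether Krt15 or Krt16 transcripts add to the 92862_f_at signal was not tested.

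**Figure D1:**
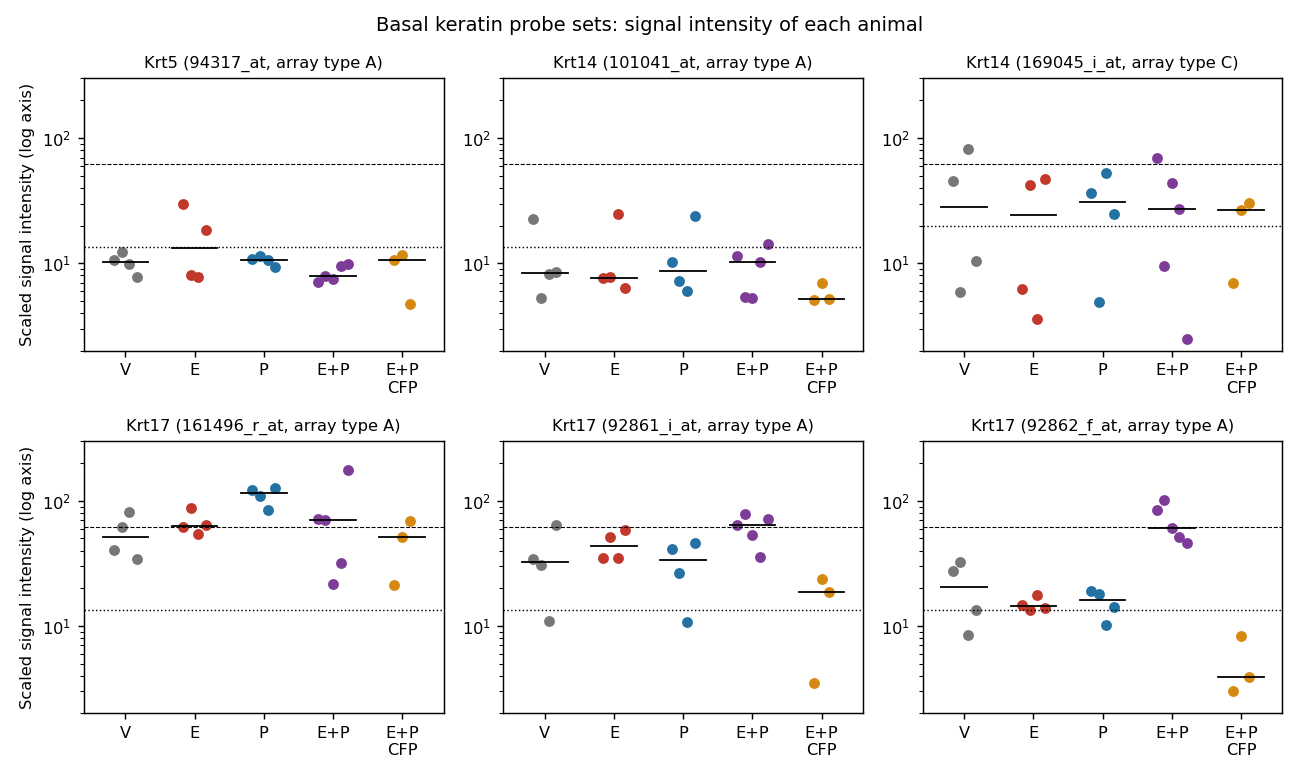
Scaled signal intensity (log axis) of each animal for 6 probe sets of Krt5, Krt14 and Krt17 in the groups V, E, P, E+P and E+P CFP; points are animals, bars are group medians, the dotted line is the floor and the dashed line the median of the array type. Krt5 and Krt14 lie mostly at or near the floor, and only on 92862_f_at do the 5 E+P glands, at 46.3 to 102, stand above every other animal.

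Trp63, needed for the basal layer to form, was measured on 103810_at at 85.1, 61.8, 76.9 and 69.8 in V, 101, 58.9, 73.7 and 114 in E, 70.6, 81.3, 56.1 and 63.6 in P, 112, 133, 108, 67.6 and 90.4 in E+P, and 29.1, 52.8 and 32.8 in E+P CFP. Every fat pad lay below every intact gland, and the intact groups overlapped. E+P exceeded E+P CFP by 1.43 ± 0.26 (adjusted p = 0.00097), a 2.70-fold difference, and by 0.93 (adjusted p = 0.00168) with an offset of 32 in place of the floor. The Trp63 probe set 136397_at on array type C ran the other way, at -0.68 ± 0.49 (adjusted p = 0.488), with overlapping groups.

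Acta2 encodes smooth muscle alpha-actin, the filament of the contractile apparatus. Probe set 93100_at read 1136, 772, 629 and 502 in V, 582, 514, 761 and 813 in E, 649, 732, 575 and 854 in P, 908, 1049, 1088, 782 and 921 in E+P, and 311, 306 and 482 in E+P CFP. The fat pads were the 3 lowest of the 20 animals, and E+P overlapped with each of V, E and P. E+P exceeded E+P CFP by 1.40 ± 0.22 (adjusted p = 0.000267), or 2.63-fold. The Acta2 probe set 135098_at on array type C did not show this, at -0.26 ± 0.72 (adjusted p = 0.891), with overlapping groups.

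Tagln encodes transgelin, an actin-binding protein of smooth muscle. Its intensities were 566, 497, 317 and 351 in V, 579, 519, 463 and 688 in E, 335, 474, 185 and 525 in P, 628, 732, 660, 501 and 973 in E+P, and 345, 273 and 405 in E+P CFP. The fat pads lay below all 5 E+P glands, but not below all V and P glands. E+P exceeded E+P CFP by 1.02 ± 0.28 (adjusted p = 0.0259), or 2.03-fold. This call was lost without E+P 2 (adjusted p = 0.0533), E+P 5 (0.0689), E+P CFP 1 (0.0823) or E+P CFP 2 (0.127), and with median scaling (0.0750), no filter (0.0712), a lymphocyte score (0.0550) or an epidermis score (0.0644) in the model.

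Cnn1, calponin, restrains the myosin motor on actin. It read 132, 102, 55.0 and 80.4 in V, 93.0, 98.7, 112 and 112 in E, 99.5, 129, 57.2 and 65.3 in P, 154, 108, 151, 81.7 and 150 in E+P, and 6.50, 14.7 and 16.2 in E+P CFP. Every intact gland was above every fat pad by a wide gap, since the lowest gland read 55.0 and the highest fat pad 16.2. E+P exceeded E+P CFP by at least 3.08 ± 0.29 (adjusted p = 2.30e-07), or at least 8.48-fold, with 1 fat pad at the floor. The size rests on how dim values are treated: it was 1.77 with the floor at the 40th percentile and 1.84 with an offset of 32, both called. Neither Cnn1 nor Tagln had a second probe set to compare. Whether that of Cnn1, 99942_s_at, also detects other transcripts was not tested.

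Myh11 is the smooth muscle myosin heavy chain. On 97990_at it read 585, 341, 157 and 178 in V, 210, 177, 268 and 283 in E, 253, 145, 175 and 209 in P, 364, 160, 374, 315 and 276 in E+P, and 72.6, 154 and 192 in E+P CFP. E+P 2 lay below the highest fat pad, and the other 4 E+P glands lay above all 3. The difference of 1.15 ± 0.38 (adjusted p = 0.0694) was not called. Without E+P 2 it was 1.36 ± 0.37 (adjusted p = 0.0317), without E+P CFP 3 it was 1.43 ± 0.42 (adjusted p = 0.0478), and without V 1, the highest gland, its adjusted p was 0.0331; without E+P CFP 1 it was 0.73 (adjusted p = 0.387). The second Myh11 probe set, 114561_at, ran from 176 to 331 over all animals and differed by 0.36 ± 0.19 (adjusted p = 0.302).

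Mylk, the kinase that switches smooth muscle myosin on, read 710, 676, 459 and 449 in V, 571, 556, 592 and 621 in E, 682, 584, 652 and 448 in P, 618, 477, 641, 525 and 501 in E+P, and 348, 472 and 312 in E+P CFP on 93482_at. The groups E+P and E+P CFP touched without overlapping, at 477 against 472. The difference of 0.56 ± 0.18 (adjusted p = 0.0553) was not called, and was called without V 1, V 4, P 4 or E+P CFP 2, with adjusted p-values of 0.0470, 0.0453, 0.0417 and 0.0244. Mylk 107992_g_at differed by 0.69 ± 0.24 (adjusted p = 0.0885) and 107991_at by 0.23 ± 0.16 (adjusted p = 0.463). Myh11 and Mylk were both called with array weights (adjusted p = 0.0433 and 0.0408) and with the Gapdh ratio, a measure of RNA quality, in the model (0.0393 and 0.0346). This 3'/5' ratio was 4.23 in E+P CFP 1, the highest of all animals, and 1.24 and 2.05 in E+P CFP 2 and E+P CFP 3. E+P CFP 1 thus had the least favourable ratio among the fat pads behind each gland against fat pad difference.

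**Figure D2:**
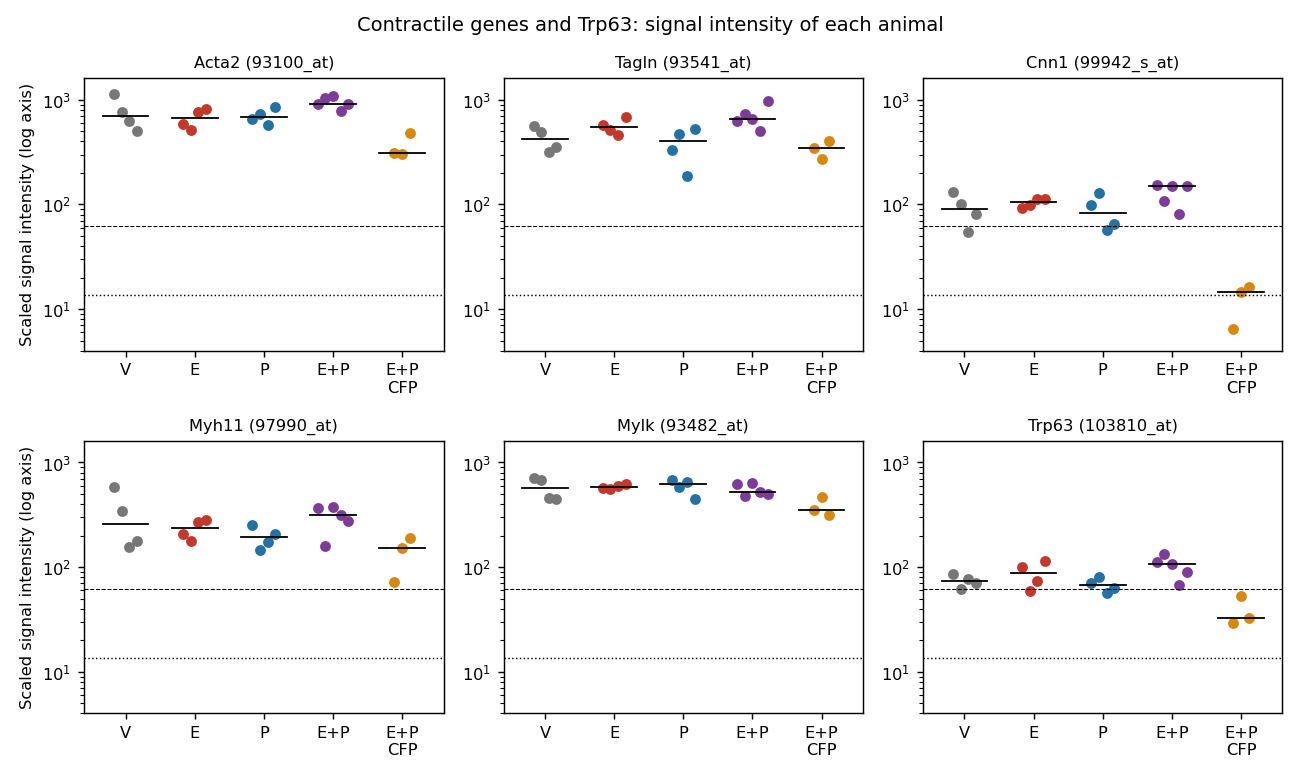
Scaled signal intensity (log axis) of each animal for Acta2, Tagln, Cnn1, Myh11, Mylk and Trp63, 1 probe set each, in the groups V, E, P, E+P and E+P CFP; points are animals, bars are group medians, the dotted line is the floor and the dashed line the median of array type A. The fat pads are lowest throughout for Acta2, Cnn1 and Trp63, with Cnn1 near the floor at 6.50 to 16.2, while the intact groups overlap.

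Between intact E+P glands and E+P fat pads, then, 4 of the 7 genes tested were called higher and none lower. Of all 12233 genes tested, 6.91% were called higher in this comparison and 10.4% in either direction. The median difference was 1.15 over the 7 genes and 0.03 over all genes. At the level of probe sets 5 of 13 were called higher, against 5.24% of all probe sets; 1 of the 5 was Krt17 92861_i_at, which passed the filter mainly through E+P. E+P and E+P CFP did not overlap for 5 of the 7 genes, with E+P higher, as for 10.4% of all genes. Median scaling moved the median of all probe sets by -0.13 and the split of all calls from 1208 higher and 613 lower to 830 higher and 1209 lower; the differences of Acta2, Cnn1 and Trp63 then were 1.17, 2.94 and 1.21 and remained called. In whole tissue, fewer cells of a type and less RNA per cell cannot be told apart.

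Other tissue moved with this comparison. All 16 luminal markers tested were higher in E+P glands (median 3.89), and their summed intensity was 7561 to 11955 in E+P against 463 to 503 in the fat pads, where Krt7, Krt8, Krt19, Epcam, Cldn7 and Elf5 were at the floor in all 3 animals. Skeletal muscle markers ran the other way, with 15 of 17 lower in E+P glands and summed intensities of 1325 to 2724 against 7672 to 12505. With a skeletal muscle score in the model, the differences of Acta2, Trp63 and Tagln were 1.11, 1.44 and 1.08 but were no longer called (adjusted p = 0.263, 0.194 and 0.484), and Cnn1 was 2.85 ± 0.50 (adjusted p = 0.00337). The score was 1.76 to 2.38 in the fat pads and at most 0.10 in E+P glands, so muscle content and the absence of epithelium cannot be told apart in these 8 animals.

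Vascular mural cells, the smooth muscle and pericytes of vessels, are the other source of contractile transcripts in a fat pad. Of their 14 markers tested, 1 was higher in E+P glands (Anpep, 0.79 ± 0.20, adjusted p = 0.0192) and 1 lower (Aoc3, -0.83 ± 0.17, adjusted p = 0.00276), with a median of -0.25. Their summed intensity was 2764 to 3664 in E+P glands and 4230 to 4971 in the fat pads. Their part in the differences of Acta2, Tagln and Cnn1 was not tested. Of 10 epidermis markers, 1 was higher in E+P glands (Sprr1a, 2.43 ± 0.62, adjusted p = 0.0175), and the summed ranges overlapped, at 2824 to 3607 against 2184 to 3064. The counts of both lists stand beside 6.91% called higher and 3.53% called lower of all genes tested.

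Other genes of the basal layer and of smooth muscle were counted beside these. Of 29 other basal genes tested, 13 were higher in E+P glands and 1, Cav1, was lower, with a median of 0.64. They included the desmosome gene Dsp (at least 4.53 ± 0.23, adjusted p = 1.65e-11), which was at the floor in 2 of the 3 fat pads. Perp (at least 3.35, adjusted p = 7.67e-11), another desmosome-associated gene among them, was at the floor in every fat pad. The transcription factor Sox10 (1.50 ± 0.18, adjusted p = 8.95e-06) was higher too. Luminal cells have desmosomes too, so Dsp and Perp are not basal alone. Of 21 other smooth muscle genes, 5 were higher and 1, Ckb, was lower, with a median of 0.20. The tropomyosin Tpm1 differed by 1.19 ± 0.14 (adjusted p = 7.15e-06), calponin 3, Cnn3, by 1.07 ± 0.13 (adjusted p = 1.02e-05) and Csrp1, a LIM protein of smooth muscle, by 1.56 ± 0.24 (adjusted p = 0.000184). Over all genes tested, 6.91% were called higher and 3.53% lower. The difference between the lists was not tested.

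**Figure D3:**
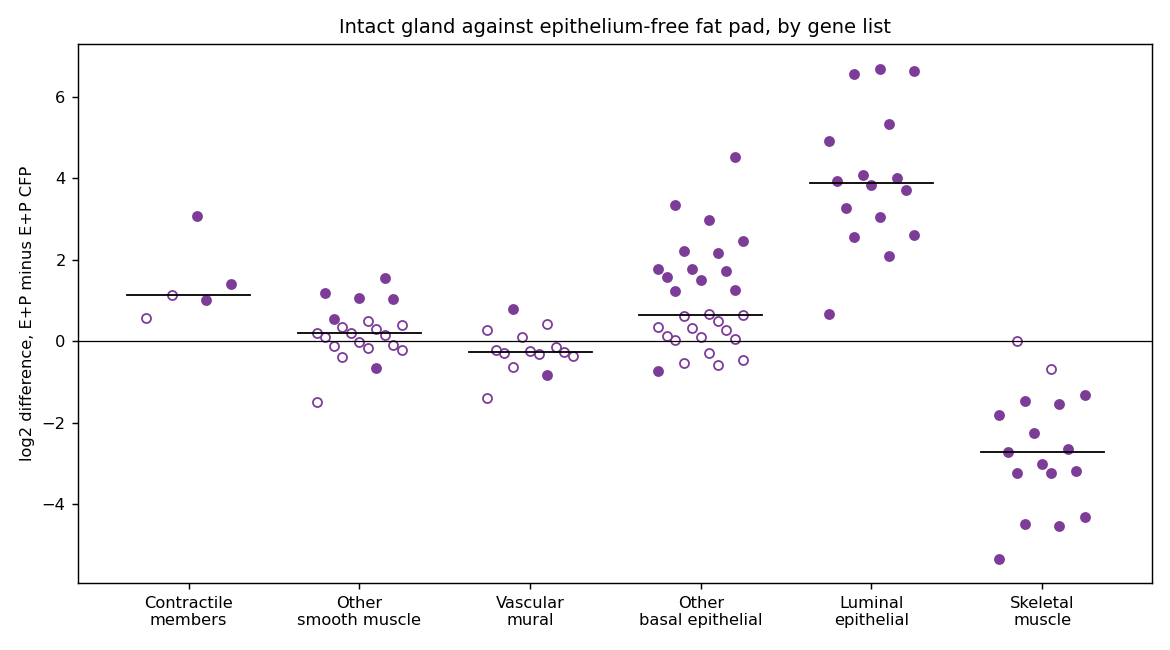
Log2 difference of E+P glands minus E+P fat pads for each tested gene of 6 lists; filled points were called at an adjusted p under 0.05, open points were not, and bars are list medians. The contractile genes (median 1.15) lie above the median of other smooth muscle genes (0.20) and of vascular mural genes (-0.25), luminal genes lie highest (3.89) and skeletal muscle genes lowest (-2.72).

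Of 9 tested genes of the serum response factor axis, 1 was higher in E+P glands (the matricellular gene Ccn2, 2.23 ± 0.41, adjusted p = 0.00131) and 1 lower (Fhl1, -1.12 ± 0.28, adjusted p = 0.0132). Of 17 genes of oxytocin and contraction signalling, 1 was higher, the gene Oxt that encodes oxytocin itself. Of all genes tested, 6.91% were called higher and 3.53% lower in this comparison. A count of 1 in a list of 9 or 17 is near these shares and is not read as a result about the list. Oxt read 122, 159, 154, 161 and 182 in E+P and 93.6, 49.5 and 33.4 in the fat pads, which did not overlap, and the difference was 1.52 ± 0.33 (adjusted p = 0.00552). Its receptor could not be set beside it.

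Among the intact glands, the question was whether estrogen, progesterone or both changed these genes. On the probe sets that represent Acta2, Tagln, Cnn1, Trp63 and Myh11 the mean of E+P was the highest of the groups. On that of Mylk it was the lowest of the intact ones. On other tested probe sets the highest mean log2 was that of E for Acta2 135098_at (6.98, E+P 5.77) and of P for Trp63 136397_at (6.04, E+P 5.30). It was that of V for Mylk 107991_at (9.32, E+P 9.19), and of E+P for Mylk 107992_g_at (7.86) and Myh11 114561_at (8.18). On the log2 scale Acta2 averaged 9.88 ± 0.19 (SD, n = 5) in E+P, 9.50 ± 0.50 (SD, n = 4) in V, 9.44 ± 0.24 (SD, n = 4) in P, 9.36 ± 0.31 (SD, n = 4) in E and 8.48 ± 0.37 (SD, n = 3) in E+P CFP. Neighbouring intact groups in that order differed by less than the larger SD of the pair, and the step to the fat pads was larger than the SD of any group.

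Tagln averaged 9.41 ± 0.35 (SD, n = 5) in E+P, 9.12 ± 0.24 (SD, n = 4) in E, 8.72 ± 0.40 (SD, n = 4) in V, 8.46 ± 0.68 (SD, n = 4) in P and 8.40 ± 0.29 (SD, n = 3) in E+P CFP. For Tagln the P glands and the fat pads were next to each other and did not differ beyond their spread. Cnn1 averaged 6.97 ± 0.40 (SD, n = 5) in E+P, 6.70 ± 0.14 (SD, n = 4) in E, 6.45 ± 0.53 (SD, n = 4) in V, 6.38 ± 0.54 (SD, n = 4) in P and 3.88 ± 0.13 (SD, n = 3) in E+P CFP. Trp63 had the same order of groups, from 6.64 ± 0.37 (SD, n = 5) in E+P through 6.39 ± 0.43 (SD, n = 4) in E, 6.19 ± 0.20 (SD, n = 4) in V and 6.07 ± 0.23 (SD, n = 4) in P to 5.21 ± 0.45 (SD, n = 3) in E+P CFP.

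None of these steps between intact groups was called. The smallest adjusted p was that of Tagln in E+P against P, at 0.95 ± 0.26 (adjusted p = 0.113). In that comparison 4 of the 7 genes had an unadjusted p under 0.05, all higher in E+P, as had 7.4% of all 12233 genes, and 0.523% of all genes passed the adjusted threshold. The other 3 were Trp63 at 0.57 ± 0.24, Cnn1 at 0.59 ± 0.26 and Acta2 at 0.44 ± 0.20, with adjusted p-values of 0.348, 0.395 and 0.413. All 4 pairs of groups overlapped.

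In E+P against V, 0 of the 7 genes passed the adjusted threshold, against 0.662% of all genes, and 1 had an unadjusted p under 0.05, against 12.3% of all genes. That gene was Tagln, at 0.70 ± 0.26 (adjusted p = 0.289). The differences of Cnn1, Trp63, Acta2, Myh11 and Mylk were 0.51, 0.45, 0.38, 0.06 and -0.03. Their 95% intervals reached 1.07, 0.94, 0.80, 0.78 and 0.31 at the upper end, and that of Tagln 1.23. On these probe sets a doubling lay within the intervals of Tagln and Cnn1 and outside those of the other 4. A doubling also lay within those of Krt17 161496_r_at and 92861_i_at, which reached 1.11 and 1.83, and of Acta2 135098_at, at 2.20. It lay outside those of Trp63 136397_at (0.44), Myh11 114561_at (0.66), Mylk 107991_at (0.17) and Mylk 107992_g_at (0.65). In E+P against E, 1 gene had an unadjusted p under 0.05, Acta2 at 0.52 ± 0.20 (adjusted p = 0.369), against 10.6% of all genes, and 0.229% passed after adjustment. All 12 lymphocyte markers tested were on the lower side in E+P against E, with a median of -1.44 and none called, and the Acta2 difference was 0.30 (adjusted p = 0.782) with the lymphocyte score in the model.

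Neither hormone alone gave a call among the 7 genes. For E against V, no gene of the 7 had an unadjusted p under 0.05, against 12.5% of all genes, and 0.213% passed after adjustment. The differences of the 5 contractile genes lay between -0.25 for Myh11 and 0.40 for Tagln. For P against V they lay between -0.51 for Myh11 and 0.06 for Mylk, and only Krt17, above, had an unadjusted p under 0.05, against 7.64% of all genes, with 0 of all genes passing after adjustment. For the interaction no gene of the 7 passed either threshold, against 11.7% of all genes at an unadjusted p under 0.05 and 0.0736% after adjustment. The comparisons with vehicle share the 4 V animals as controls, so they are not independent of each other. The Acta2 probe set 135098_at, on array type C, gave 2.05 ± 0.69 in E against V (adjusted p = 0.231), whereas 93100_at gave -0.15 ± 0.21.

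**Figure D4:**
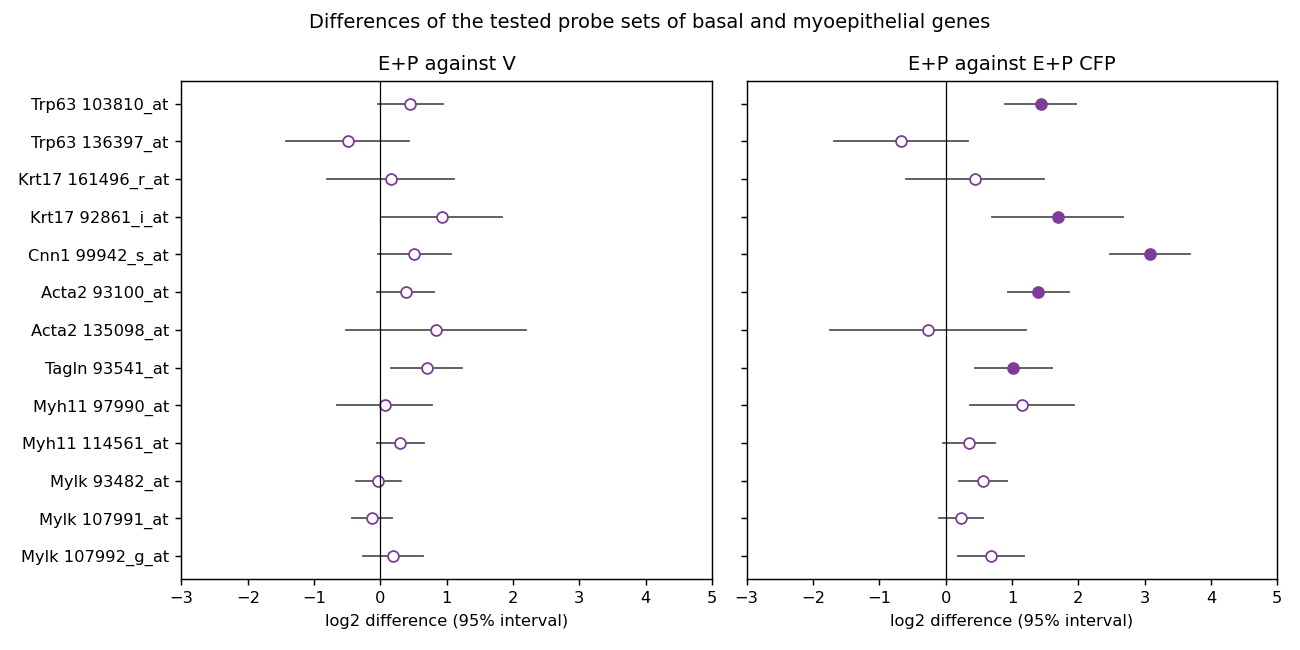
Log2 differences with 95% intervals from limma for the 13 tested probe sets, E+P against V on the left and E+P against E+P CFP on the right; filled points were called at an adjusted p under 0.05 and open points were not. No probe set is filled on the left, and 5 are filled on the right, from Tagln at 1.02 to Cnn1 at 3.08.

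The related lists gave the same count among intact glands. In E+P against V, 0.662% of all genes tested were called. In E+P against V, 0 of 29 other basal genes, 0 of 21 other smooth muscle genes, 0 of 14 mural genes, 0 of 9 genes of the serum response factor axis and 0 of 17 genes of oxytocin and contraction signalling were called. The smallest adjusted p-values in them were 0.0970 for Krt15 (0.87 ± 0.23), 0.0821 for Tpm1 (0.53 ± 0.13), 0.380 for Aoc3 (-0.36 ± 0.15), 0.219 for Ccn2 (1.14 ± 0.38) and 0.189 for Ppp1r12a (-0.42 ± 0.13), a regulatory subunit of myosin phosphatase. The Krt15 value is that of its _f probe set, which can also detect related transcripts. Of 16 luminal markers 2 were higher with E+P, Wfdc18 (2.72 ± 0.33, adjusted p = 0.000438) and Ehf (1.55 ± 0.32, adjusted p = 0.0309). The share of luminal to basal cells was not measured.

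Over the 17 intact glands, the contractile genes varied together in part. Pearson's r of log2 values was 0.73 for Cnn1 and Tagln, 0.66 for Trp63 and Tagln, 0.64 for Acta2 and Tagln, 0.62 for Acta2 and Myh11 and 0.59 for Trp63 and Acta2. Mylk and Tagln did not vary together (r = -0.09), and Krt17 on 161496_r_at had r between -0.42 and -0.01 with the other 6. These are descriptions over animals that share 4 treatments and the same arrays. The tested genes most like Acta2 over the 17 glands were Zfp704 (r = 0.82), Gtf2ird1 (0.81), Hacd4 (0.81), Nit2 (0.79), Col17a1 (0.79) and Plekhb1 (0.79), chosen as the highest of all genes tested.

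Col17a1 encodes the collagen of hemidesmosomes, by which basal cells hold on to the basement membrane. It read 87.0, 100.0, 47.7 and 57.2 in V, 65.0, 35.9, 63.5 and 74.5 in E, 68.0, 68.8, 42.5 and 67.8 in P, 133, 114, 132, 114 and 80.0 in E+P, and 22.7, 38.3 and 41.5 in E+P CFP. The E+P glands overlapped with V and lay above the fat pads; the order over the intact glands restates how the gene was chosen. E+P exceeded E+P CFP by 1.77 ± 0.30 (adjusted p = 0.000509). The choice used these E+P glands though not the fat pads, so this comparison is not independent of it. Of the other 5 genes, Zfp704 (2.09), Gtf2ird1 (1.15) and Plekhb1 (1.22) were also called higher than in the fat pads, and Hacd4 (1.65, adjusted p = 0.118) and Nit2 (0.18, adjusted p = 0.721) were not. Of all genes tested, 6.91% were called higher in this comparison.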

How the data were processed

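Signal intensities on a linear scale, deposited by the authors for 3 Affymetrix array types, came from MAS5 according to the submitters' processing notes; its version was not given in the sources used here. An extraction reagent is named in the labels of the E and P arrays (12 each) and of no array of the other groups. The deposited 2% trimmed mean of each array lay between 150.03 and 150.10; each array was scaled to a common one, floored and turned to log2. limma 3.58.1 in R 4.3.3 fitted a mean for each of the 5 groups with a trended empirical Bayes step per array type, and was tested on simulated data. A gene was represented by 1 probe set: type A before B before C, no suffix first, then the highest mean. From each other gene list, up to 3 called genes with the smallest adjusted p were named, or else the 1 with the smallest. The genes and lists were chosen with earlier results of these data known. Alternatives covered scaling, floor, filter, variance model, covariates, probe set choice and leaving out animals. Promoter letters were searched in RefSeq windows. The number of arrays limits precision.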

Additional observations from a re-analysis of the deposited data

Results flagged for a closer look

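Of the 52 sets of 4 or 5 animals checked over the 13 tested probe sets, 3 held an animal far from the others of its group; chance alone gives about 1 in 20. On Trp63 probe set 136397_at, P 2 was the lowest of the P glands at 5.55 on the log2 scale (intensity 46.7), and the nearest was at 6.18. On Acta2 probe set 135098_at, V 4 was the highest of the V glands at 6.44 (intensity 87.0), and the nearest was at 4.61. On Myh11 probe set 114561_at, E+P 1 was the lowest of the E+P glands at 7.78 (intensity 221), and the nearest was at 8.22. None of these probe sets represents its gene in the comparisons. The Krt17 probe set 92862_f_at, which the filter on dim probe sets left out, had every E+P gland above every V gland, by 1.71 on average.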

How the results depend on the processing

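The count of genes called in E+P against E+P CFP was 4, and 1 with the skeletal muscle score in the model; it ranged from 3 to 6 when 1 animal was left out and was within 1.5 times 4 in 38 of 39 alternatives. With the replicate block, the replicate number as a factor, it was 4, Tagln not called (0.86, adjusted p = 0.0909) and Mylk called (0.65, adjusted p = 0.0467); same-numbered animals did not vary together (r from -0.10 to 0.10 over 36 pairs, 12 of which were best with their own number), so the numbers were not taken as pairs. All 39 alternatives gave 0 genes called in each of the 6 comparisons among intact glands. The Cnn1 call held in all 39 (largest adjusted p 0.00337), those of Acta2 and Trp63 in 38 and that of Tagln in 28; Mylk was called in 7 and Myh11 in 5. Of 36 differences with an unadjusted p of 0.05 or more, 17 changed sign in at least 1 alternative and none was newly called. For Krt17 92862_f_at, fitted without the filter and chosen after seeing the data, 30 alternatives kept the sign; the call was lost in 3 for E+P against V, 2 against E, 1 against P, 19 for the interaction and 0 against E+P CFP. With the floor at the 40th percentile its 5 values were all 0.85. Dim probe sets limit Krt5 and Krt14.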

Other observations

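Within the V group, V 1 and V 2 read higher than V 3 and V 4 on the probe set that represents each of the 5 contractile genes, Acta2, Tagln, Cnn1, Myh11 and Mylk; this was noticed after the values were seen and was not tested. For Myh11 the readings were 585 and 341 against 157 and 178. Of the other tested probe sets of these genes, Mylk 107992_g_at followed the split, at 331 and 235 against 156 and 140. Myh11 114561_at (301 and 176 against 212 and 270), Mylk 107991_at (779 and 583 against 548 and 672) and Acta2 135098_at (20.8 and 16.0 against 24.4 and 87.0) did not. Trp63 did not follow this split, at 85.1 and 61.8 against 76.9 and 69.8. The mean log2 deviation of the 21 other smooth muscle genes from all animals was 0.11 and 0.07 in V 1 and V 2 and 0.00 and -0.14 in V 3 and V 4, and that of the 29 other basal genes was 0.30 and 0.33 against 0.01 and -0.18. The Gapdh control probe sets had a 3'/5' signal ratio of 2.09 and 1.94 in V 1 and V 2 against 2.21 and 3.42. The vascular mural score did not follow the split, at 0.29 and 0.07 against 0.26 and -0.20. The lymphocyte score did not either, at -1.35, -1.35 and -1.33 in V 1, V 2 and V 3 and 1.23 in V 4. Nor did the luminal, skeletal muscle, adipocyte and fibroblast scores. The endothelial score did follow the split, at 0.32 and 0.36 against 0.18 and -0.16. So did the epidermis score, at -0.05 and 0.29 against -0.18 and -0.09. The part of these tissues in the split was not tested. V 2 also had the highest epidermal Krt10 intensity of the V glands, at 344.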
